A study of Mus musculus with 27 samples.

Results

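The haemoglobin and red cell genes examined here were the α globins Hba-a1, Hba-a2 and Hba-x, the β globins Hbb-bs, Hbb-bt and Hbb-y, the erythroid haem synthesis enzyme Alas2 and the red cell anion exchanger Slc4a1. They were chosen by symbol. Of these 8 genes, 5 were analysed among the 22855 genes of the count tables, namely Hba-a1, Hba-a2, Hbb-bs, Hbb-bt and Alas2. Hba-x, Hbb-y and Slc4a1 were not analysed here. All mice were C57Bl/6 with no transgene or treatment given in the labels, and RNA was polyadenylated. The series' design text names myocardial infarction, which neither the sample labels nor the study's methods mention, and the groups here follow the labels. Whole hearts were taken at postnatal day 1 (P1), 4 weeks (4W), 14 weeks (14W), 1 year (1Y) and 18 months (18M), with 3 samples per age. Cardiac fibroblasts were sorted by flow cytometry as PDGFRα-positive cells from digested ventricles, with 3 samples at P1, 3 at 4W and 2 at each of 14W, 1Y and 18M. The labels do not say whether a sample is a single mouse or a pool, nor whether hearts were cleared of blood. A member that differs between bulk samples can reflect fewer cells or less RNA per cell, and these cannot be told apart.

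Total counts ranged from 46091271 to 67984404 per whole heart and from 54615898 to 76758831 per fibroblast sample. The 4 globins together made up 0.0224% to 0.155% of the counts of a heart and 0.000393% to 0.00873% of those of a fibroblast sample. Fibroblast markers such as Pdgfra, the sort antigen, and Col1a1 were higher in the sorted cells than in hearts at P1 for 7 of 7 markers. Among cardiomyocyte markers 7 of 7 were lower, beside 18.7% of all genes called lower. The share of all genes called higher was not computed. The summed level of those cardiomyocyte markers was nevertheless 637 to 699 CPM (counts scaled by library size and TMM factor) in the P1 fibroblast samples, against 12.6 to 158 CPM in the later ones. A pair of genes that tell male from female cells moved with age. Xist, which is transcribed from the inactive X chromosome, was at most 0.570 CPM in the hearts of 14W and 1Y, 6.48 to 334 CPM in those of P1 and 4W and 34.8 to 129 CPM in those of 18M. The Y-linked Ddx3y was at most 0.397 CPM in the 18M hearts and 35.5 to 99.0 CPM in those of 14W and 1Y. In the P1 and 4W hearts it was 1.64 to 33.9 CPM, so that both transcripts were present. Sex and age therefore cannot be told apart in comparisons of 14W with 18M or with 4W, whereas the hearts of 14W and 1Y shared 1 pattern. Xist was at 124 to 334 CPM in the P1 hearts and at 6.48 to 140 CPM in those of 4W. The part of sex in comparisons of P1 with later ages was not tested.

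Haemoglobin carries oxygen as a tetramer of 2 α and 2 β globin chains, each holding a haem group. In adult mice the α chains come from the neighbouring copies Hba-a1 and Hba-a2 and the β chains from the neighbouring copies Hbb-bs and Hbb-bt, while Hba-x and Hbb-y serve the primitive red cells of the embryo. Alas2 makes the first intermediate of haem in erythroid cells. Mature mouse red cells have no nucleus, but young ones, the reticulocytes, still hold globin messenger RNA, and circulating reticulocytes are known to be more frequent in newborn mice. Heart muscle itself depends on another member of the globin family, myoglobin.

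The members lie on 3 chromosomes of GRCm38, the assembly also called mm10 that was used for alignment. In GENCODE M21, Hba-a1 spans chromosome 11, 32283511 to 32284465, and Hba-a2 spans 32296489 to 32297298 on the same strand. Hbb-bs spans chromosome 7, 103826534 to 103828096, and Hbb-bt spans 103812524 to 103813996, both on the minus strand. Alas2 spans chromosome X, 150547375 to 150570638. The 120 bases before each RefSeq start site (GRCm38.p6) are shown because the members moved together across hearts. Capitals mark the motifs searched on both strands, namely the CACCC box known to bind KLF proteins, the general promoter box CCAAT, the TATA box searched as TATAA and the GATA protein motif searched as AGATAA. No match overlapped another.
Hba-a1 (chr11:32283552-32283671, plus strand): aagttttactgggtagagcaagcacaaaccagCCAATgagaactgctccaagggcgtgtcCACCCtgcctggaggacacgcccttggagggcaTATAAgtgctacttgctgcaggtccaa
Hba-a2 (chr11:32296372-32296491, plus strand): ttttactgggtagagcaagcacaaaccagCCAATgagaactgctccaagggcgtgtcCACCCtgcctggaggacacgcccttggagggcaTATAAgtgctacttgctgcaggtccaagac
Hbb-bs (chr7:103827929-103828048, minus strand): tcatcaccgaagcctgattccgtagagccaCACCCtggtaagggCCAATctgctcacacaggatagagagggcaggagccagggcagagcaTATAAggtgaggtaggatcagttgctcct
Hbb-bt (chr7:103813924-103814043, minus strand): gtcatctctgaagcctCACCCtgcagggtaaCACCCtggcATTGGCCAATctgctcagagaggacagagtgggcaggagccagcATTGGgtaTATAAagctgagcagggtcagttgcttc
Alas2 (chrX:150547297-150547416, plus strand): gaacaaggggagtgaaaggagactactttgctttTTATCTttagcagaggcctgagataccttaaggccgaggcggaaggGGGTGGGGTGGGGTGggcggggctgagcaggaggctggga
Among 32851 promoters of the same length, 31.7% hold the CACCC box, 21.3% the CCAAT box, 11.8% the TATA box and 4.36% the GATA motif. The 4 globin promoters each hold the first 3 of these motifs. Hba-a1 and Hba-a2 hold each of these once, in the same order and with the same letters between them. Hbb-bs also holds each once, whereas Hbb-bt holds the CACCC box 2 times and the CCAAT box 3 times. Alas2 holds the CACCC box 3 times and the GATA motif once, and the other motifs were not found in this window. A match is a description of the letters and not evidence of binding.

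The paired copies are nearly the same gene over their coding parts, which limits what a read can tell about each. The coding sequences of Hbb-bs and Hbb-bt, 441 bases each, differ at 1 base, and those of Hba-a1 and Hba-a2, 426 bases each, also differ at 1 base. Their second exons are identical over 223 and 205 bases, and the shared letters are shown once for each pair.
Exon 2 of Hbb-bs (chr7:103827448-103827670, minus strand): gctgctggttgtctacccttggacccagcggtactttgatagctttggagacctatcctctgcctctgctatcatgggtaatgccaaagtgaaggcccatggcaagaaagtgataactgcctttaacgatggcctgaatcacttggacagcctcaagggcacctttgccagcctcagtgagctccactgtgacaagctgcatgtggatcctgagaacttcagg
Exon 2 of Hba-a1 (chr11:32283924-32284128, plus strand): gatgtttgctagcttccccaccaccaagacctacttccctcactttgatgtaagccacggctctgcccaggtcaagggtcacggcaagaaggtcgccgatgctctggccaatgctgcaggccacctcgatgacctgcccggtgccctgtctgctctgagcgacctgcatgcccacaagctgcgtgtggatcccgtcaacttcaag
The same letters stand at chr7:103813439-103813661 in Hbb-bt and at chr11:32296741-32296945 in Hba-a2. Of the 65-base windows (the read length) along the main transcript, 35.1% of Hbb-bs and 42.7% of Hbb-bt occur in no other gene's transcript. The values were 35.6% for Hba-a1 and 16.5% for Hba-a2. For Alas2 it was 87.4%, the rest being shared with the overlapping gene Apex2. These shares depend on the GENCODE models, in which the first exon has 291 bases in Hba-a1 and 130 in Hba-a2. The Hba-a1 model starts before the RefSeq start site, so the promoter letters shown for Hba-a1 lie within it. The Hbb-bt model also starts before its RefSeq start site, so part of the promoter letters shown for Hbb-bt lies within that model. By the gene spans given above, the whole window shown for Hbb-bs lies within the span of its gene. The same holds for part of the windows of Hba-a2 and Alas2. Values per length of transcript depend on the models as well. Only uniquely placed reads were counted, so the counts of each globin come from the parts in which the copies differ, understate its RNA, and remain uncertain where reads could be split between copies.

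Haemoglobin transcripts were present in every whole heart. By mean TMM-scaled CPM they were lowest at 14W and highest at 4W and 18M. Between P1 and 4W no member passed the edgeR test given below. For Hbb-bs a 4W heart lay below every P1 heart, and with library totals Hbb-bt averaged 57.3 CPM at P1 and 54.3 CPM at 4W. Hbb-bs, the most abundant member, was at 415, 335 and 365 CPM in the 3 hearts of P1. It was at 329, 1059 and 581 CPM at 4W and at 286, 222 and 258 CPM at 14W. It was at 537, 291 and 344 CPM at 1Y and at 497, 1209 and 718 CPM at 18M. The P1 hearts lay close together, a single 4W and a single 18M heart (replicate 2 of each) stood above the rest, and the 18M hearts did not overlap those of 14W.

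Hbb-bt, the minor β globin copy, was at 41.4, 36.9 and 42.3 CPM at P1 and at 32.4, 88.8 and 40.7 CPM at 4W. It was at 20.6, 15.1 and 13.9 CPM at 14W, 51.1, 22.3 and 31.6 CPM at 1Y and 49.1, 106 and 43.6 CPM at 18M. All 3 of its 14W values lay below every other heart.

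The α globin Hba-a1 was at 88.5, 57.8 and 45.7 CPM at P1 and at 51.5, 230 and 97.8 CPM at 4W. It was at 47.0, 39.2 and 39.4 CPM at 14W, 74.0, 45.0 and 49.0 CPM at 1Y and 95.1, 216 and 136 CPM at 18M. The same 2 hearts were again the highest, and the ranges of P1, 14W and 1Y overlapped. Its copy Hba-a2 was at 17.5, 12.8 and 10.9 CPM at P1, and its level fell between 9.58 and 46.2 CPM at 4W, 7.61 and 9.71 CPM at 14W, 8.78 and 15.9 CPM at 1Y and 14.1 and 43.4 CPM at 18M. Alas2 was at 34.4, 17.4 and 16.5 CPM at P1, 16.5, 57.6 and 25.5 CPM at 4W and 13.2, 11.7 and 18.1 CPM at 14W. At 1Y it was at 27.04, 12.3 and 14.2 CPM and at 18M at 33.7, 71.1 and 18.7 CPM. The haem enzyme thus ranged most widely at 18M, where 1 heart came close to the highest value of 14W.

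**Figure D1:**
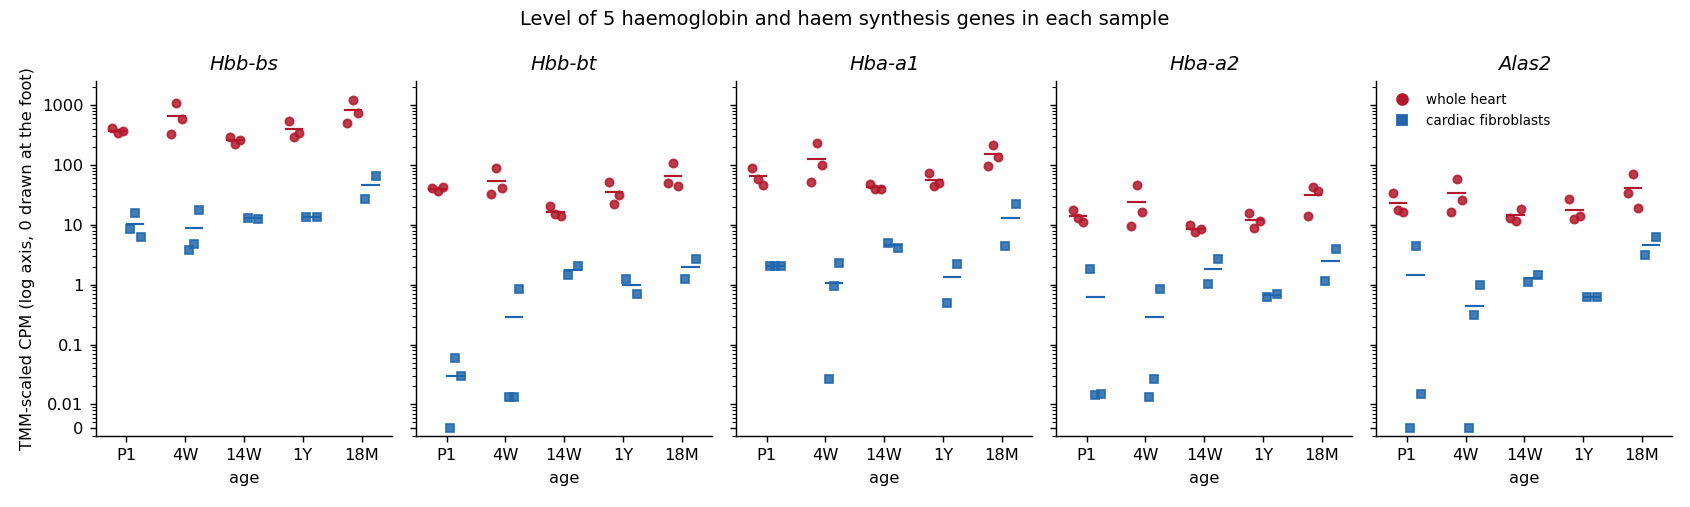
Level of each member (TMM-scaled CPM, log axis) in each whole heart (circles) and each fibroblast sample (squares) by age, with short lines at the mean. Hearts lie above the fibroblast samples of the same age for each member, and Hbb-bt is near 0 in the P1 fibroblasts.

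Divided by the length of the main transcript, the order of the members was the same at each of the 5 ages. At P1 the level was 591 CPM per kilobase for Hbb-bs, 91.6 for Hba-a1, 57.2 for Hbb-bt, 24.8 for Hba-a2 and 11.2 for Alas2. At 14W the corresponding levels were 407, 59.9, 23.5, 15.5 and 7.02 CPM per kilobase. Counting only windows that are unique to a gene moved Hba-a2 above Hbb-bt at each age, with 170 against 147 CPM per kilobase of unique window at P1. The order of these 2 copies therefore rests on how shared sequence is treated.

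The first question the design poses is whether the members differed among the 5 ages in whole hearts. In edgeR's quasi-likelihood F test over all ages, 4 of 5 members passed at an adjusted p under 0.05, against 34.3% of the 17995 genes tested. These were Hba-a1 (adjusted p = 0.00746), Hba-a2 (0.0249), Hbb-bs (0.00788) and Hbb-bt (0.00835), whereas Alas2 had an adjusted p of 0.0921. The count was 3 without replicate 2 or 3 of 14W or replicate 2 of 18M, and 5 without replicate 1 of 4W.

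From P1 to 4W, none of the 5 members passed, against 18.2% of all genes called, and 2 of them had an unadjusted p under 0.05. DESeq2 also called none. Hbb-bs averaged 371 ± 40.5 CPM at P1 and 656 ± 370 CPM at 4W (mean ± SD, n = 3 each), which the fit put at 0.82 on the log2 scale (SE 0.35, edgeR adjusted p = 0.126). Hba-a1 averaged 64.0 ± 22.1 and 126 ± 92.7 CPM, or 0.98 higher on that scale (SE 0.42, adjusted p = 0.119). For both genes the SD of the 4W hearts exceeded the difference of the means. Without replicate 1 of 4W, which held the lowest globin levels of its age, both passed, with log2 fold changes of 1.14 for Hbb-bs and 1.36 for Hba-a1 (edgeR adjusted p = 0.0241 and 0.0186). Without replicate 2 of 4W, which held the highest levels, the values were 0.29 and 0.22 (adjusted p = 0.622 and 0.760), and those of Hbb-bt, Hba-a2 and Alas2 were below 0, at -0.14, -0.09 and -0.12.

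This comparison also depends on scaling. TMM factors were 1.40 to 1.47 in the P1 hearts and 0.787 to 1.05 in the later ones, and mitochondrial genes took 10.8% to 13.7% of counts at P1 against 14.9% to 34.5% later. With library totals alone, the log2 fold change from P1 to 4W became 0.33 for Hbb-bs and -0.08 for Hbb-bt, which had been 0.42 under TMM. The median of all genes moved as well, from -0.09 to -0.60. Relative to that median, Hbb-bs was 0.91 higher under TMM and 0.93 higher under library totals, and Hbb-bt was 0.51 and 0.52 higher.

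From 4W to 14W the members were lower, by a log2 fold change of -1.21 for Alas2 to -1.71 for Hbb-bt. Xist was at 6.48 to 140 CPM in the 4W hearts and at most 0.414 CPM in those of 14W. Sex and age therefore cannot be told apart in this step either. Only Hbb-bt passed (SE 0.39, edgeR adjusted p = 0.0384), with 53.9 ± 30.5 CPM at 4W and 16.5 ± 3.56 CPM at 14W, so 1 of 5 members was called lower against 0.85% of all genes. The adjusted p was 0.0725 for Hbb-bs and 0.074 for Hba-a1, and both passed with DESeq2. The Hbb-bt call was lost when any single heart of 14W, replicate 2 or 3 of 4W, replicate 1 or 2 of P1 or replicate 3 of 1Y was left out, with an adjusted p of 0.0503 to 0.192. It was lowest in size without replicate 2 of 4W, at -1.14. The number called was 3 without replicate 1 of 4W and 2 without replicate 1 of 18M, when Hbb-bs also passed.

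Between 14W and 1Y none of the 5 members passed, against 0.972% of all genes, and 1 had an unadjusted p under 0.05. DESeq2 again called none. That member was Hbb-bt, at 35.0 ± 14.7 CPM at 1Y (log2 fold change 1.08, SE 0.39, edgeR adjusted p = 0.209). It passed when only these groups were fitted (1.10, adjusted p = 0.0305). Hbb-bs stood at 391 ± 130 CPM at 1Y, and the log2 fold changes of the members other than Hbb-bt were 0.32 to 0.61.

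From 14W to 18M the globins rose together. Hbb-bs went from 255 ± 32.1 to 808 ± 364 CPM, a 3.16-fold rise (log2 fold change 1.66, SE 0.36, edgeR adjusted p = 0.00705). Hbb-bt went from 16.5 ± 3.56 to 66.2 ± 34.6 CPM, a 4.01-fold rise (2.00, SE 0.40, adjusted p = 0.00412). Both α globins rose by a similar amount, Hba-a1 by 3.56-fold (1.83, SE 0.43, adjusted p = 0.0103) and Hba-a2 by 3.63-fold (1.86, SE 0.49, adjusted p = 0.0192). Alas2 averaged 14.3 ± 3.33 and 41.2 ± 26.99 CPM, with an adjusted p of 0.0546 by edgeR and of 0.01 by DESeq2. In all, 4 of 5 members were called higher, against 4.91% of all genes. In 5 of 5 members every 18M heart lay above every 14W heart, which held for 13.3% of all genes.

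The rise did not rest on 1 heart. The number of members called was 3 without any single 14W heart or without replicate 2 of 18M, and 5 without replicate 1 of 18M, replicate 1 or 2 of 4W or replicate 1 of P1. Hbb-bs, Hbb-bt and Hba-a1 kept their calls in each of these fits. The call of Hba-a2 was lost without any 1 heart of 14W or replicate 2 or 3 of 18M, with an adjusted p of 0.0551 to 0.0736. The 14W hearts had the male and the 18M hearts the female pattern of Xist and Ddx3y, so that age and sex cannot be told apart here.

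**Figure D2:**
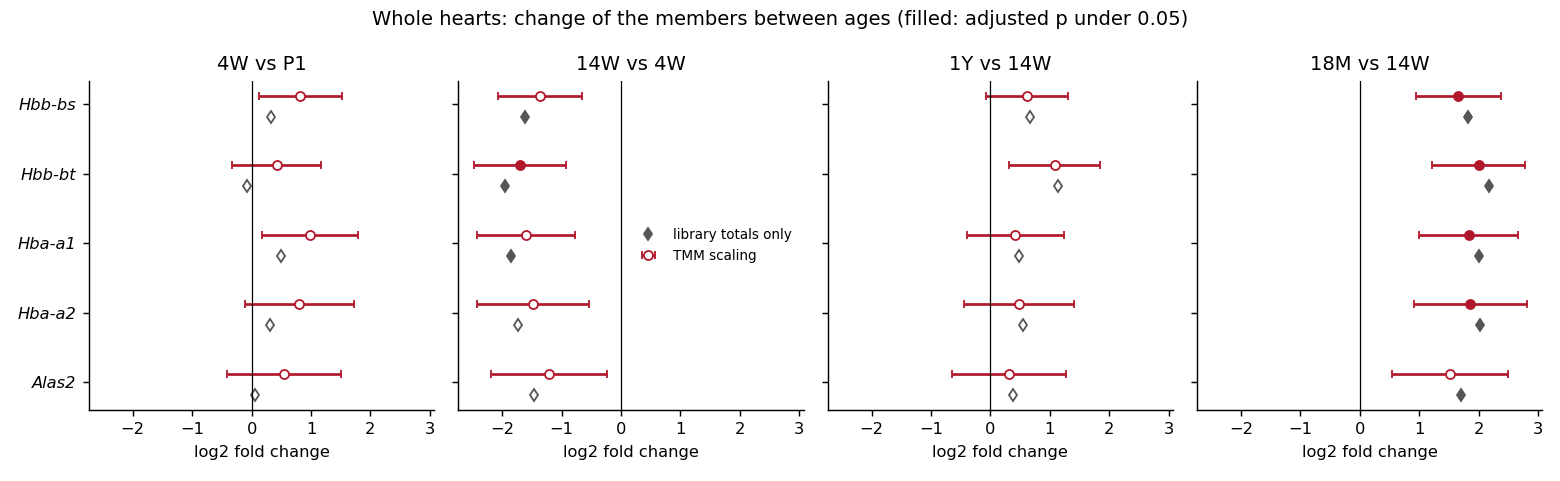
Log2 fold change of each member between ages of whole hearts, with TMM scaling (circles, 95% confidence interval) and with library totals only (diamonds), filled where the adjusted p was under 0.05. From 14W to 18M the 5 members lie at 1.52 or above under TMM, and from P1 to 4W they lie nearer 0 with library totals.

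Because the ratio of 2 genes within a sample does not move with scaling, the minor copy of each pair was also expressed as a share of the pair's reads. Hbb-bt made up 9.09%, 9.93% and 10.4% of the β globin reads in the P1 hearts. Later hearts ranged from 5.13% to 8.998% with a median of 7.43%, so all 12 lay below the 3 of P1. The difference of 2.43 percentage points had p = 0.00879 in a two-sided exact permutation test and an adjusted p of 0.0527 over the 6 ratio tests made, so it did not pass. Leaving out any 1 of 5 later hearts (4W replicate 1, 14W replicate 3, 1Y replicate 1 or 3, or 18M replicate 1) brought the adjusted p to between 0.033 and 0.0495, with differences of 2.23 to 2.58 points. At 4W the share was 6.55% to 8.95% and at 14W 5.13% to 6.70%.

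The share of Hba-a2 among α globin reads was 16.5%, 18.1% and 19.3% at P1 and 12.9% to 20.9% in the later hearts. The groups overlapped, and the difference of 1.204 points did not pass (exact permutation p = 0.349, adjusted p = 0.419). It was 1.94 points without replicate 1 of P1, 0.531 without replicate 3 and 2.41 against 4W alone. Alas2 relative to Hbb-bs, as a log2 ratio of counts, was -3.59, -4.27 and -4.47 at P1 and -5.26 to -3.83 later. This too overlapped, with a difference of 0.24 (exact permutation p = 0.321, adjusted p = 0.419), which was -0.01 without replicate 1 of P1. The lowest ratio, -5.26, came from replicate 3 of 18M, where Alas2 was at 18.7 CPM beside 718 CPM of Hbb-bs.

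**Figure D3:**
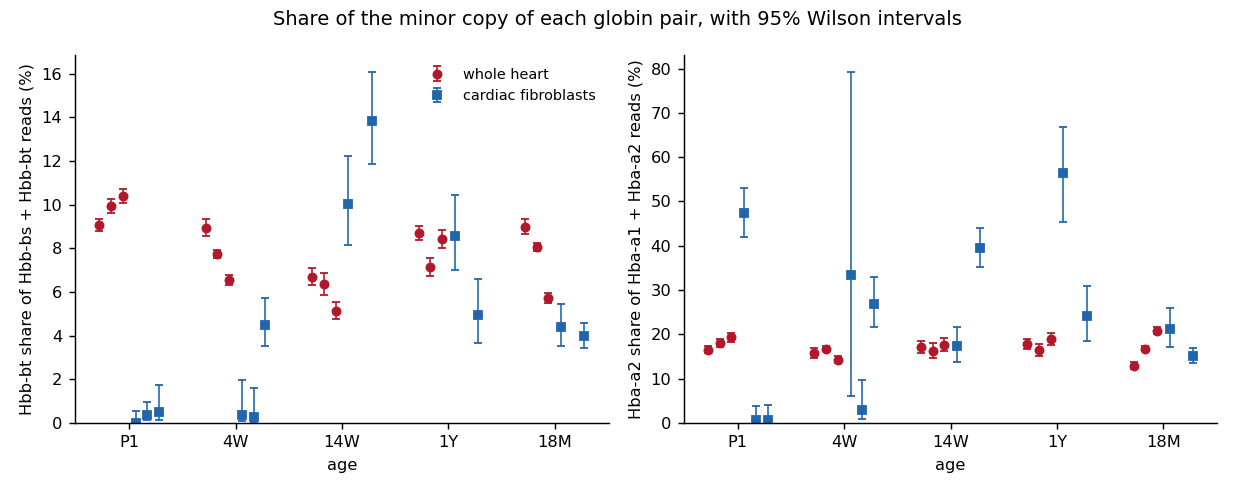
Share of the minor copy in the reads of each globin pair (percent, 95% Wilson interval for counting error only) in each sample by age. In hearts the Hbb-bt share is highest at P1, at 9.09% to 10.4%, and in fibroblasts it is at most 0.477% at P1 and up to 13.8% later.

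The members also varied together from heart to heart. Over the 12 hearts of 4W and later, log2 CPM of Hbb-bs was correlated with that of Hba-a1 at Pearson r = 0.985 (Spearman rho 0.972), with Hba-a2 at 0.971 (rho 0.972), with Hbb-bt at 0.954 (rho 0.930) and with Alas2 at 0.899 (rho 0.846). The permutation p of r was 1e-05 for the globins, the smallest that 100000 permutations can give, and 0.00019 for Alas2, while adjusted over the 4 relations it was 1.33e-05 and 0.00019. For rho the adjusted p ranged from 2e-05 to 0.00098. Without the 2 hearts farthest from the median, replicate 2 of 18M and of 4W, r was 0.97, 0.934, 0.898 and 0.732 over the 10 others, so that the relations did not rest on these 2. Deviations from the mean of each age were correlated at 0.979, 0.949, 0.908 and 0.831. The points share their library, and each pair of copies shares sequence.

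**Figure D4:**
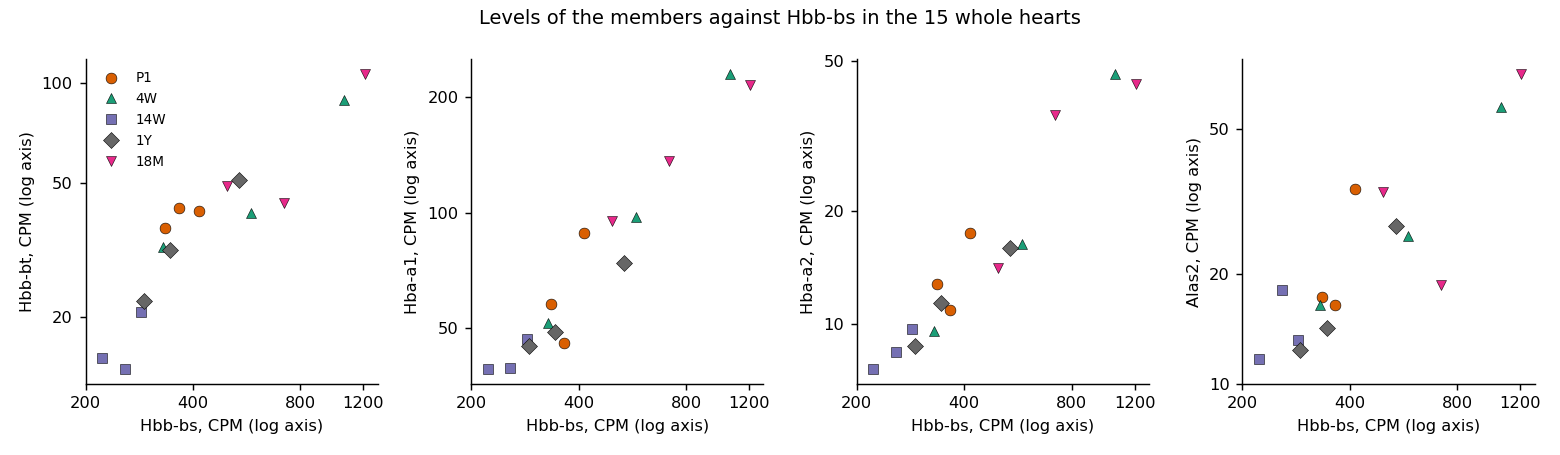
Level of Hbb-bt, Hba-a1, Hba-a2 and Alas2 against Hbb-bs in the 15 whole hearts (TMM-scaled CPM, log axes), with a symbol per age. The 14W hearts are at the lower left, and replicate 2 of 4W and of 18M are at the upper right, at 1059 and 1209 CPM of Hbb-bs.

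In sorted cardiac fibroblasts the members were low and uneven. Hbb-bs was detected in each of the 12 samples, with 284 to 4241 counts. It was at 8.50, 15.7 and 6.12 CPM at P1, 3.81, 4.71 and 17.9 CPM at 4W and 13.1 and 12.6 CPM at 14W. At 1Y it was at 13.3 and 13.4 CPM and at 18M at 26.6 and 66.1 CPM. The 18M samples were the 2 highest. Xist and Ddx3y split the fibroblasts as they did the hearts, with at most 0.315 CPM of Xist at 14W and 1Y and 424 to 429 CPM at 18M. At P1 and 4W they held both Xist (137 to 590 CPM) and Ddx3y (24.8 to 50.8 CPM).

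The other members came and went between replicates of an age. Hbb-bt had 0, 4 and 2 counts at P1, 1, 1 and 62 counts at 4W, and 43 to 175 counts in the 6 samples of later ages. Hba-a2 had 151, 1 and 1 counts at P1 and 1, 2 and 62 counts at 4W. Alas2 had 0, 301 and 1 counts at P1 and 0, 23 and 73 counts at 4W. Hba-a1 was even at P1, with 167, 141 and 139 counts, and uneven at 4W, with 2, 70 and 169 counts. A count of 0 in a P1 sample allows a level of up to 0.0402 CPM. These jumps between samples of 1 age are larger than counting error, and reads were not collapsed by molecule. Their origin was not tested.

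Among the 5 ages, 1 of 5 members differed in fibroblasts, against 19.9% of the 18759 genes tested. That was Hbb-bs (edgeR adjusted p = 0.0424), and the call was lost without either sample of 14W, either of 1Y, replicate 5 of 18M, replicate 1 or 2 of 4W, or replicate 1 or 3 of P1. No member passed between P1 and 4W (15.5% of all genes called), between 4W and 14W (3.87%), between 14W and 1Y (1.78%) or between 14W and 18M (2.72%). The number of members with an unadjusted p under 0.05 was 0, 0, 0 and 1, and DESeq2 called none in these 4 comparisons. The exception was Hbb-bs from 14W to 18M, with 12.8 ± 0.349 and 46.3 ± 27.9 CPM (n = 2 each, log2 fold change 1.86, SE 0.69, edgeR adjusted p = 0.228), which was 1.05 without replicate 5 of 18M. From P1 to 4W the log2 fold change of Hbb-bs was -0.20 (SE 0.55, adjusted p = 0.882), and it ran from -1.25 without replicate 3 of 4W to 0.25 without replicate 2 of P1.

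The 18M fibroblast sample with 66.1 CPM of Hbb-bs, replicate 5, also held more neutrophil markers, 22.9 against 7.05 CPM in replicate 4, and more endothelial markers, 1405 against 329 CPM. Its cardiomyocyte markers stood at 110 against 22.5 CPM, and mitochondrial genes took 7.83% against 2.20% of its counts. Its platelet markers, 33.7 against 45.7 CPM, and macrophage markers, 78.0 against 94.0 CPM, were lower. The part of other cell types in the globin level was not tested.

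In the β globin pair, Hbb-bt made up 0% to 0.477% of β globin reads in the P1 fibroblasts, with a Wilson upper bound of 0.551% where no read was seen, and 0.284% to 13.8% later, so that the ranges overlapped. The difference of -5.37 points did not pass (two-sided exact permutation p = 0.0682, adjusted p = 0.205). The 2 samples of 4W with the lowest shares, 0.351% and 0.284%, each rested on 1 read of Hbb-bt. The Hba-a2 share ran from 0.704% to 56.4% over the 12 samples, and its difference of -9.99 points did not pass (adjusted p = 0.441, exact permutation test). It was -2.20 points without replicate 2 or 3 of P1 and -25.6 without replicate 1. Alas2 relative to Hbb-bs did not either (difference -2.44 on the log2 scale, exact permutation p = 0.186, adjusted p = 0.373), and that difference was -0.62 without replicate 1 of P1 and -4.92 without replicate 2.

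Against whole hearts of the same age, the fibroblasts held far less of each member. In a fit of all 27 samples, 5 of 5 members were lower in fibroblasts at P1 (18.7% of the 20650 genes were called lower), 5 of 5 at 4W (18.6%), 4 of 5 at 14W (17.7%), 5 of 5 at 1Y (15.7%) and 4 of 5 at 18M (17.9%). Hba-a2 at 14W (edgeR adjusted p = 0.14) and Alas2 at 18M (adjusted p = 0.0504) did not pass. At 1Y the number called was 3 without either fibroblast sample. At 14W it was 3 in most fits that left out 1 sample and 5 without replicate 1 of the P1 fibroblasts. At 18M it was 3 without either fibroblast sample or heart replicate 2 of that age, and 5 without heart replicate 3, any P1 fibroblast sample or replicate 1 or 3 of the 4W fibroblasts.

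At P1 Hbb-bs was 46.6-fold lower in fibroblasts (log2 fold change -5.54, SE 0.58, edgeR adjusted p = 5.29e-08). Hba-a1 was 39.7-fold lower (adjusted p = 1.34e-05), Hba-a2 27.5-fold lower (adjusted p = 0.00362) and Alas2 19.7-fold lower (adjusted p = 0.00891). The folds of Hba-a2 and Alas2 each rested on 1 P1 fibroblast sample. Without replicate 1, which held 151 of the Hba-a2 counts, that log2 fold change went from -4.78 to -10.02, and without replicate 2, which held 301 of the Alas2 counts, that of Alas2 went from -4.30 to -11.67. The Alas2 call was lost when only these groups were fitted (adjusted p = 0.0898). Hbb-bt had only 6 counts in all in the P1 fibroblasts, and its fitted log2 fold change of -10.74 (SE 1.10) depends on the prior count. At 18M the fold was 22.7 for Hbb-bs and 14.9 for Hba-a1, and the difference from P1 was not tested. An interaction term asked whether the step from P1 to 4W was unlike in hearts and fibroblasts. None of 5 members passed, against 7.14% of all genes, and 1 had an unadjusted p under 0.05, namely Hbb-bt (2.83, SE 1.34, edgeR adjusted p = 0.223). DESeq2 called none as well, and the count was 1 without replicate 3 of the 4W fibroblasts.

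Of 17 listed red cell membrane genes 13 were measured, and from P1 to 4W 4 were higher in hearts. Of all genes, 18.2% were called in either direction. The median log2 fold change of the list was 0.06 against -0.09 over all genes. Among those that rose were the cytoskeletal genes Ank1 (103 ± 11.4 to 447 ± 56.7 CPM, n = 3 each) and Sptb (75.1 ± 9.99 to 191 ± 32.5 CPM), and Cd47, a surface protein of many cell types. Ankyrin 1 and β-spectrin are also made in striated muscle. The call of Cd47 was lost with library totals (0.28).

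Genes of haem synthesis and iron supply rose from P1 to 4W for 8 of 15, beside 18.2% of all genes called in either direction. Their median log2 fold change was 0.65. The leading members were the iron reductase Steap3 (1.63, edgeR adjusted p = 3.54e-05), the mitochondrial glycine carrier Slc25a38 (1.19, adjusted p = 0.00416), the housekeeping haem enzyme Alas1 (1.12, adjusted p = 0.000161) and the iron transporter Slc11a2 (0.91, adjusted p = 0.00845). With library totals the calls of Slc25a38 (0.69) and Slc11a2 (0.41) were lost. Alas1 went from 123 ± 15.5 to 268 ± 45.2 CPM. Its erythroid counterpart Alas2 did not pass in the same comparison, at 22.7 ± 10.1 and 33.2 ± 21.6 CPM. Of 3 other globin family genes, 2 passed the filter and rose, myoglobin (Mb, 2846 ± 645 to 12380 ± 2646 CPM) and cytoglobin (Cygb, 36.8 ± 3.09 to 84.6 ± 18.1 CPM).

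Of 9 erythroid transcription and signalling genes tested, 1 rose and 1 fell from P1 to 4W, a share near the 18.2% of all genes called. Bcl11a, which silences embryonic globin genes and is also expressed outside blood, fell from 18.5 ± 3.33 to 3.51 ± 1.02 CPM (log2 fold change -2.40, SE 0.57, edgeR adjusted p = 0.00695). In fibroblasts Bcl11a fell from 2.15 ± 1.06 CPM to no counts at 4W, at least 53.3-fold lower at a floor of 3 counts per library. Lmo2, a partner of erythroid factors that endothelium also makes, rose in hearts by 0.60 (adjusted p = 0.0269), a call lost with library totals (0.09) and without replicate 3 of 4W or replicate 2 or 3 of P1 (0.47 to 0.57). Genes known from red cell precursors, looked at after their values were seen, were scarce. The erythroid factor Klf1 reached at most 83 counts in a P1 heart and 63 in a 4W heart. It had no counts in the 3 hearts of 18M, where the globins were highest. Hemgn had no counts in the hearts of 14W, 1Y and 18M, and Epb42, a red cell membrane protein, none in those of 14W and 18M.

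Of 7 genes of red cell maturation and metabolism tested, 1 rose, beside 18.2% of all genes called in either direction. It was the water channel Aqp1 (73.5 ± 7.71 to 376 ± 24.3 CPM), which endothelium also makes. Among 10 genes of haem clearance and iron storage, 3 rose, beside 18.2% of all genes called in either direction. The haemoglobin scavenger receptor Cd163 led them (0.937 ± 0.952 to 29.5 ± 9.73 CPM, log2 fold change 4.97, edgeR adjusted p = 0.000154). Lrp1, a receptor for haem bound to hemopexin, and Fth1, the ferritin heavy chain, rose by 1.79 and 1.17. In fibroblasts 5 of the 10 changed from P1 to 4W, 3 higher and 2 lower, beside 15.5% of all genes called. The haptoglobin gene Hp fell from 5.09 ± 1.58 to 0.311 ± 0.527 CPM, and the iron exporter Slc40a1 fell from 21.6 ± 10.2 to 8.58 ± 2.23 CPM. The calls of Cd163, Hp and Slc40a1 in fibroblasts were each lost when any 1 of several P1 or 4W samples was left out.

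At P1, 7 of 13 red cell membrane genes and 9 of 15 haem synthesis and iron genes were lower in fibroblasts than in hearts. Of all genes, 18.7% were called lower. The blood group gene Rhd had no counts in the 3 fibroblast samples and was at least 104-fold lower at a floor of 3 counts per library. The transferrin receptor Tfrc, at 105 ± 48.0 CPM in hearts and 4.18 ± 0.291 CPM in fibroblasts on the joint scale, was lower by 4.65 on the log2 scale (edgeR adjusted p = 9.58e-06). Haem clearance genes were mixed, with Lrp1 and Hmox1, the haem-degrading enzyme, higher in fibroblasts.

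Markers of other blood cells were set beside the globins in hearts. Neutrophil markers (9 measured) summed to 7.52 to 10.9 CPM at P1, 2.26 to 6.58 CPM at 4W, 0.196 to 0.731 CPM at 14W, 1.00 to 3.44 CPM at 1Y and 3.77 to 8.90 CPM at 18M, and 6 to 8 of the 9 were at 0 in each 14W heart and 6 or 7 in each 18M heart. Platelet markers (9 measured) summed to 10.6 to 18.0 CPM at 14W and to 24.3 to 51.0 CPM at 18M, where 6 of the 9 were at 0 in the heart with the highest sum. Lymphocyte markers (6 measured) summed to 1.99 to 2.87 CPM at 14W and 3.75 to 8.26 CPM at 18M. Each of the 3 sums was higher in every 18M heart than in every 14W heart, and so were those of macrophage markers (325 to 369 and 537 to 723 CPM) and fibroblast markers (775 to 915 and 1201 to 1340 CPM). At 18M 1 platelet marker of 9 and 1 neutrophil marker of 8 tested were called higher, beside 4.91% of all genes, and the median log2 fold change of the neutrophil list was 0.27. The part of other cells in the globin levels was not tested.

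The sum of macrophage markers was 75.3 to 91.5 CPM at P1 and 413 to 530 CPM at 4W. Of these markers 7 of 7 were called higher at 4W, beside 18.2% of all genes called in either direction. Lyz2 led them (14.8 ± 1.00 to 143 ± 21.3 CPM). At P1 the macrophage sum was the lowest of the 5 ages, whereas the neutrophil sum was the highest. From 14W to 18M, 3 of 7 macrophage markers were called higher, beside 4.91% of all genes.

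**Figure D5:**
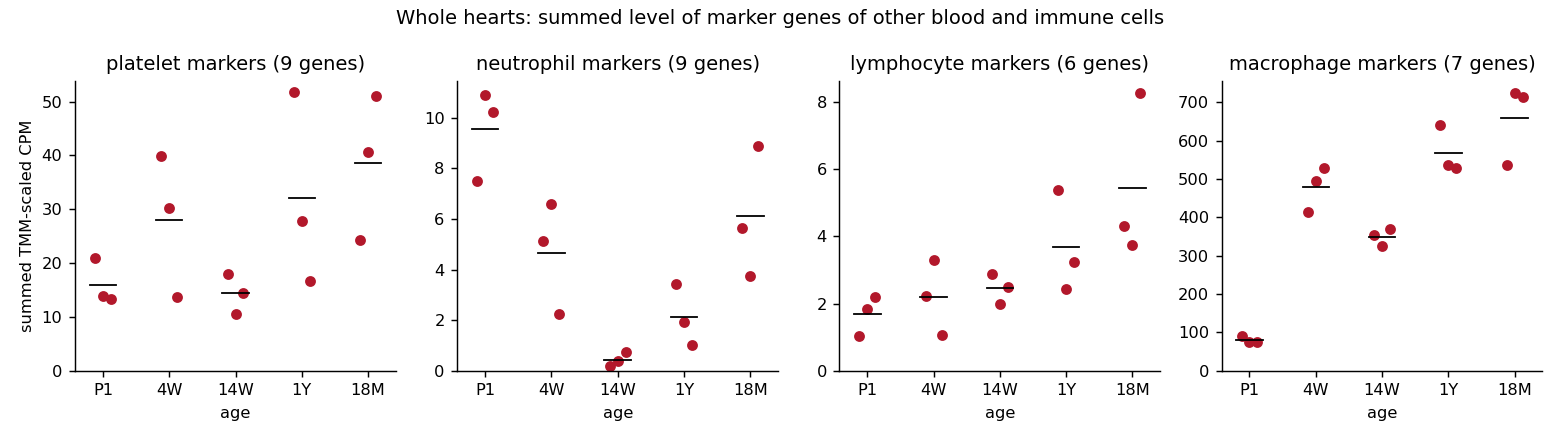
Summed level (TMM-scaled CPM) of platelet, neutrophil, lymphocyte and macrophage markers in each whole heart by age, with lines at the mean. The 14W hearts have the lowest neutrophil sums, at 0.196 to 0.731 CPM, and the P1 hearts the lowest macrophage sums, at 75.3 to 91.5 CPM.

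The genes most like Hbb-bs across the 15 hearts, by Pearson's r of log2 CPM over 13231 genes, were the other globins, at 0.97 for Hba-a1, 0.96 for Hba-a2 and 0.92 for Hbb-bt. The closest genes outside the members were Rhog (0.90), Fhl3 (0.88), Cotl1 (0.87), Ier5l (0.87) and Ctsz (0.86), with Alas2 at 0.87. For Alas2 the closest were Pcolce (0.87), Rrs1 (0.86), Plscr1 (0.84), Fhl3 (0.83) and Ctsz (0.80), while Hba-a1 stood at 0.89. Across the 12 fibroblast samples, over 13312 genes, those closest to Hbb-bs were Smc1a (0.86), Sirt1 (0.86), Foxp2 (0.86), Psme2 (0.84) and Sf3b1 (0.84). The globins stood at 0.68 to 0.78 and Alas2 at 0.81. For Alas2 in fibroblasts the closest were Mtmr12 (0.93), Gm42679 (0.93), Slc1a1 (0.93), Trpm3 (0.91) and Maneal (0.91). In fibroblasts, then, the genes picked as closest to Hbb-bs stood above its partner globins. Picking the closest of 13312 genes over 12 samples favours high values, and Hbb-bt, Hba-a2 and Alas2 had few counts in several samples. No conclusion is drawn from that contrast. All these correlations are descriptions over samples that share age and library, with no test.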

How the data were processed

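RNA sequencing counts were analysed for 15 whole hearts and 12 samples of cardiac fibroblasts. The deposited values were raw counts per gene for each sample, which the authors made from single-end 65-base reads with STAR 2.5.3a on mm10, counting uniquely placed reads per gene with its gene counting mode. The annotation release and any use of strand are not given in the sources used here. No column lacked a sample, and no replicate pair of 24 compared had identical counts. Groups followed the labels (tissue, then age). The study's methods give separate hearts for the replicates of an age, which the labels do not state for each sample.

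Members and gene lists were chosen with earlier results of these data known. Counts were tested with edgeR 4.0.16 (R 4.3.3), using TMM factors, the filter by group, quasi-likelihood F tests and Benjamini-Hochberg adjustment over all genes tested, with calls at an adjusted p under 0.05. All ages of a tissue entered 1 fit, and comparisons between tissues used 1 fit of all 27 samples. The study's own methods used DESeq2, which was run as an alternative (version 1.42.0). Levels are counts scaled to library size and TMM factor within a tissue (CPM), with the joint factors for both tissues where they are compared. Fold changes are fitted values on the log2 scale. Within-sample ratios of counts (plus 0.5 for log2 ratios) were compared by exact permutation tests over samples and adjusted over the 6 that could be made of 8 planned. Relations used log2 CPM with a prior count of 2. Wilson 95% intervals and the floor of 3 counts cover counting error only, since PCR copies were not collapsed. Genes of the other lists were named by size of change among those that passed with a mean of at least 1 CPM, up to 4 per list between ages and 3 between tissues. The edgeR test was checked on simulated counts for the step from 14W to 18M in each tissue. It recovered 40.5% of 2-fold and 95.5% of 4-fold changes in hearts, and 12.5% and 86.5% in fibroblasts. Most 2-fold changes were thus missed. The changed genes had higher mean levels than Hbb-bt, Hba-a1, Hba-a2 and Alas2 have in fibroblasts. Alternatives comprised other scalings, filters and sample sets, DESeq2, a replicate block and leaving out each sample. Sequences came from RefSeq (promoters, 5 of 5 members found) and GENCODE M21, searched with Python 3.11.15.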

Additional observations from a re-analysis of the deposited data

How the results depend on the processing

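Direction and call were kept for most values. Of the log2 fold changes of single genes, 1949 kept their call when 1 sample was left out, 75 lost it and 10 gained it, and under the other alternatives 950 kept it, 46 lost it and 16 gained it. No called value changed sign. The calls that hold least are those from 4W to 14W in hearts and among ages in fibroblasts. From 4W to 14W in hearts, 3 members were called with DESeq2, library totals, library totals without the members or a minimum of 10 counts in every sample, and 0 when only the groups compared were fitted or with the replicate block, the range when leaving out 1 sample being 0 to 3. Among ages in fibroblasts, 2 were called with DESeq2 and 0 with library totals, library totals without mitochondrial genes or without the members, and 0 to 1 when leaving out 1 sample. From P1 to 4W in hearts the range was 0 to 2, for the interaction 0 to 1 and for fibroblasts against hearts at 1Y 3 to 5. From 14W to 1Y in hearts 1 was called when only those groups were fitted. With at least 10 counts in every sample, a single member, Hbb-bs, could be tested in fibroblasts against hearts, and 1 was called at each age. Counts of calls for all ages in hearts (3 to 5) and from 14W to 18M (3 to 5) stayed within 1.5 times the reported ones. The Hbb-bt share difference in hearts ranged from 2.14 to 2.79 points when leaving out 1 sample. With scaling, the median of all genes from P1 to 4W in hearts moved from -0.09 to -0.60 (library totals) or -0.45 (without mitochondrial genes), and from 4W to 14W from 0.00 to -0.24 (library totals).

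Same-numbered samples of different ages did not deviate together (correlations of -0.0619 to 0.102 over 30 pairs of hearts and -0.0316 to 0.0356 over 7 of fibroblasts), so the numbers share only a label. With a replicate block, 3 members were called among ages in hearts, 4 from 14W to 18M and 5 between tissues at each of P1 and 4W. The block could not be fitted for fibroblasts from 4W to 14W or among ages. The ratio of Slc4a1 to Hbb-bs and its relation were not run. At this depth the fibroblast counts of Hbb-bt, Hba-a2 and Alas2, at 0 to 4 in several samples, limit every comparison of them.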
